A study of Mus musculus with 11 samples.

Results

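Of 46983 genes in the count table of mouse aortic valves, 10 were taken by symbol as markers of the muscle of 1 heart chamber. The 5 atrial genes were Myl7, Myl4, Sln, Nppa and Bmp10, and the 5 ventricular genes were Myl2, Myl3, Myh7, Nppb and Irx4. The aortic valve is the outlet of the left ventricle and is made of interstitial and endothelial cells, so these genes show which chamber the cardiac muscle RNA in a dissected valve resembled. All mice were wild type. Their valves were collected 48 hours after surgery, in which a wire injured the valve endothelium or a sham operation was done. Young mice had an age of 3 to 4 months and aging mice of 16 to 18 months. Of the young mice 3 had sham surgery and 3 were injured, and of the aging mice 3 had sham surgery and 2 were injured, each mouse giving 1 library of whole-tissue RNA. In such tissue, fewer cells of a type and less RNA per cell cannot be told apart.

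Cardiac muscle contracts through thick filaments of myosin, and each myosin head carries a heavy chain, a regulatory light chain and an essential light chain. Atrial and ventricular muscle use different genes for these chains: Myl7 and Myl4 encode the regulatory and essential light chains of the atria, and Myl2 and Myl3 those of the ventricles. Adult mouse ventricle uses mainly the heavy chain of Myh6, with Myh7 as the slow, fetal-type form that returns under load. Sln encodes sarcolipin, an atrial inhibitor of the calcium pump of the sarcoplasmic reticulum. Nppa and Nppb encode the natriuretic peptides ANP and BNP, hormones that lower blood pressure, and both rise in strained ventricle. Bmp10 encodes a ligand of the BMP family made by the adult right atrium, and Irx4 a transcription factor of ventricular muscle.

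The letters before the start of 4 of these genes are shown because the atrial genes Myl7 and Nppa moved together across the mice, Bmp10 had no counts, and Myh7 was the 1 ventricular gene with a window that held no annotated exon and ended within 8 bases of its counted start. RefSeq's promoter table (build GRCm38.p6) held 9 of the 10 genes, and Sln was not among them. Each window is the 250 bases before an annotated start, on the strand of the gene. Capitals mark matches, on either strand, to GATAA (a motif bound by GATA factors), TATAAA, the CArG box of serum response factor and the MEF2 box.
Myl7, chr11:5898783-5899032, minus strand: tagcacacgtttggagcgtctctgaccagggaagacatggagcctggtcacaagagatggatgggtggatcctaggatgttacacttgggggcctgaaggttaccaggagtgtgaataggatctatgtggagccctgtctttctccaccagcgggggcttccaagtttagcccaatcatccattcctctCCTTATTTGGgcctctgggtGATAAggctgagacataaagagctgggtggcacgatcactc
Nppa, chr4:148000472-148000721, plus strand: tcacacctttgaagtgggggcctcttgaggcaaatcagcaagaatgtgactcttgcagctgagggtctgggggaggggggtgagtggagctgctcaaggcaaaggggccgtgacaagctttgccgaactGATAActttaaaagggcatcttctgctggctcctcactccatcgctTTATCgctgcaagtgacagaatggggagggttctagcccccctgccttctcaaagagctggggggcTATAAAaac
Bmp10, chr6:87428744-87428993, plus strand: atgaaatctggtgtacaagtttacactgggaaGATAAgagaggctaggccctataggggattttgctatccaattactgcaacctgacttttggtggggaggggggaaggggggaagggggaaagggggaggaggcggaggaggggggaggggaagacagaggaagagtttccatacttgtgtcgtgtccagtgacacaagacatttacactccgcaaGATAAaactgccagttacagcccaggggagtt
Myh7, chr14:54994627-54994876, minus strand: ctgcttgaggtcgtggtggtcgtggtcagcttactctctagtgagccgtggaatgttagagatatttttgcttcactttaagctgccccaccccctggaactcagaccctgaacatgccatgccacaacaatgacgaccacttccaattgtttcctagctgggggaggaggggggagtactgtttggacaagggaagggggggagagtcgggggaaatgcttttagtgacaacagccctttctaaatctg
The Myl7 window held a CArG box, CCTTATTTGG, 61 bases before the start and GATAA 41 bases before it. The Nppa window held GATAA 121 bases before the start, TTATC, its form on the opposite strand, 75 bases before it, and TATAAA 9 bases before it. Bmp10 held GATAA 218 and 32 bases before its start, and the Myh7 window held none of the 4 motifs. Motifs were found in windows of both chambers. Of the windows not printed, those of the ventricular genes Myl2, Myl3 and Nppb held GATAA, that of Myl3 also a CArG box, that of Nppb also TATAAA, and a second window of Myl2 TATAAA on the opposite strand. The windows of the atrial Myl4 and the ventricular Irx4 held none. The table's starts of Myl2 and Myl3 lay 7762 bases or more from the starts in the count table. No match overlapped another. Of 32851 windows of this length in the table, 22.6% held GATAA, 12.4% TATAAA, 1.47% a CArG box and 0.508% a MEF2 box. These matches are descriptions of the letters and were not tested for binding.

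The libraries held between 27124000 and 36353474 counts. Levels are given as CPM, the counts of a gene scaled to a common library total after TMM scaling of the library sizes, 1 value per mouse. Fibroblast and valve interstitial genes, the labelled tissue, summed to 13863 to 24704 CPM over 10 genes, with all 10 detected. Smooth muscle genes, also 10, summed to 7923 CPM in young injured 3 up to 26863 CPM in aging sham 2, where the interstitial sum was lowest. The 14 genes common to all cardiac muscle, such as Myh6, Actc1 and Tnnt2, summed to 8558 CPM in young injured 2 up to 34939 CPM in young sham 3, so cardiac muscle RNA was present in all 11 libraries. In mitochondrial genes the share of counts ran from 5.10% to 13.78%. Genes with a count numbered 18641 in young sham 1, 18642 in aging injured 1 and 19015 in aging injured 2, against 20411 to 22533 in the other 8 libraries. The whole aging injured group was thus among the libraries with few detected genes. In contrasts that use this group, that difference cannot be told apart from injury or age.

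The regulatory light chains were present in both forms in all 11 mice, and their proportion differed widely from mouse to mouse. Myl7 (ENSMUSG00000020469, minus strand of chromosome 11, 5896637 to 5898782, mm10) was at 104, 633 and 956 CPM in young sham 1, 2 and 3. It was at 507, 65.2 and 536 CPM in young injured 1, 2 and 3. In aging sham 1, 2 and 3 Myl7 was at 533, 13.9 and 90.8 CPM, and in aging injured 1 and 2 at 42.3 and 211 CPM. Aging sham 2 was the lowest and young sham 3 the highest, 68.6-fold apart, and the mice within each group were far apart.

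Myl2 (ENSMUSG00000013936, plus strand of chromosome 5, 122100951 to 122113472) was at 1051, 1271 and 1584 CPM in the young sham mice. It was at 53.1, 480 and 1631 CPM in the young injured mice, in the same order of replicates. The aging sham mice had 660, 436 and 464 CPM of Myl2 and the aging injured mice 887 and 389 CPM. The 3 young sham mice were close together, while young injured 1 and 3 were the lowest and highest of all 11 libraries, 30.7-fold apart. Young injured 1 thus had Myl7 within the range of the other mice and Myl2 far below the other 10 libraries.

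**Figure D1:**
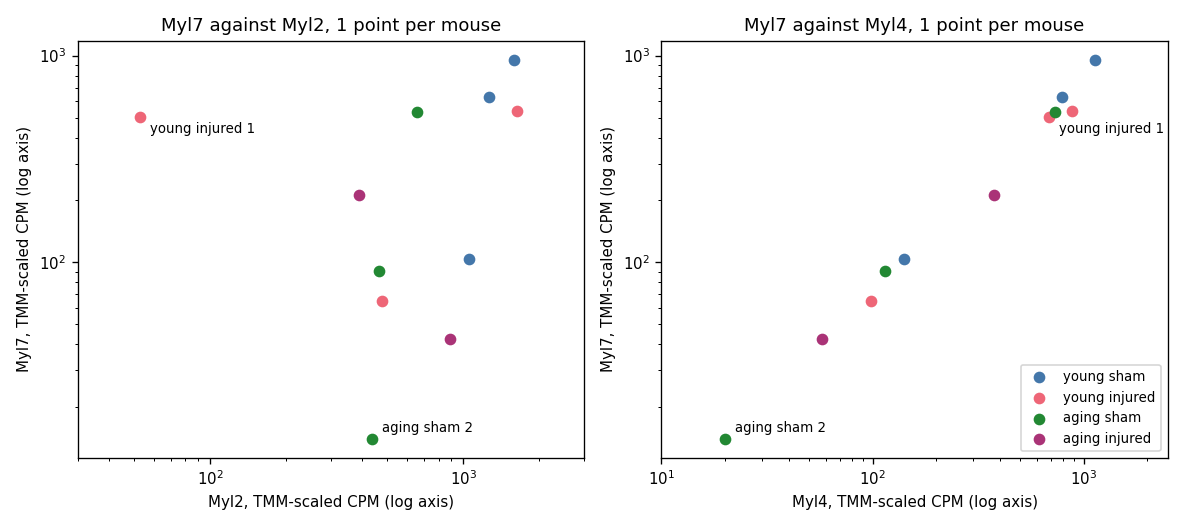
Each point is 1 mouse, coloured by group, with log axes in TMM-scaled CPM: Myl7 against Myl2 on the left and against Myl4 on the right. The atrial pair lies along 1 line from aging sham 2 (13.9 CPM of Myl7) to young sham 3 (956 CPM), whereas on the left young injured 1 stands apart at 53.1 CPM of Myl2.

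The essential light chains put the mice in nearly the same order within each chamber. Myl4 (plus strand of chromosome 11, 104550663 to 104595753) was at 141, 786 and 1132 CPM in the young sham mice and at 687, 97.8 and 877 CPM in the young injured mice. The aging sham mice had 732, 20.0 and 115 CPM of Myl4, and the aging injured mice 57.7 and 376 CPM. The ratio of Myl7 to Myl4 counts stayed between 0.560 and 0.845 in all 11 libraries, a 1.51-fold range for genes that varied 68.6-fold and 56.5-fold. Myl3 (plus strand of chromosome 9, 110741861 to 110769798) was at 682, 814 and 882 CPM in the young sham mice and at 68.0, 283 and 944 CPM in the young injured mice. In aging sham mice it was at 384, 248 and 268 CPM, and in aging injured mice at 439 and 264 CPM. Myl2 over Myl3 was 1.47 to 2.02 in 10 libraries and 0.781 in young injured 1, where both ventricular light chains were at their lowest. Myl3 overlaps Pth1r, which had 10343 counts against 165798 for Myl3, and the use of strand in counting is not given in the sources used here. Reads from the overlap could have gone to either gene.

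The other atrial genes were as variable as the light chains, and 1 was not detected. Sln (plus strand of chromosome 9, 53850251 to 53853844) was at 18.8, 79.9 and 149 CPM in young sham mice and at 48.5, 7.16 and 71.4 CPM in young injured mice. It was at 73.8, 2.07 and 9.20 CPM in aging sham mice and at 7.21 and 41.0 CPM in aging injured mice. These values put the mice in nearly the same order as Myl7. Nppa (plus strand of chromosome 4, 148000722 to 148002079) had the widest range of the 9 detected genes. It was at 202, 845 and 1230 CPM in young sham mice and at 1305, 115 and 1624 CPM in young injured mice. In aging sham mice Nppa was at 926, 3.27 and 68.2 CPM, and in aging injured mice at 28.1 and 470 CPM. The highest and lowest mice, young injured 3 and aging sham 2, were 497-fold apart. The antisense gene Gm13054, which overlaps Nppa, had 4432 counts against 222158, and reads from the overlap could have gone to either. Bmp10 (plus strand of chromosome 6, 87428994 to 87437677), the atrial ligand, had 0 counts in all 11 libraries. A count of 0 allows up to 0.0825 to 0.111 CPM in a single library and 0.00844 CPM over all 355524528 counts, for counting error only.

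The other ventricular genes were Myh7, Irx4 and Nppb, of which Myh7 and Irx4 were lowest in the same mouse as the light chains, young injured 1. Myh7 (minus strand of chromosome 14, 54970688 to 54994634) was at 3392, 3105 and 4978 CPM in young sham mice and at 337, 1260 and 6596 CPM in young injured mice. It was at 2420, 436 and 1195 CPM in aging sham mice and at 988 and 695 CPM in aging injured mice. Transcripts of Myh7 and Myh6 share an identical run of up to 245 bases, longer than the 150 nt reads, and how shared reads were counted is not given in the sources used here. Myh7 levels are therefore uncertain. The longest run shared by Myl7 and Myl2 was 16 bases, by Myl4 and Myl3 29 bases, and by Nppa and Nppb 10 bases.

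Nppb (plus strand of chromosome 4, 147985788 to 147987205), a neighbour of Nppa, was at 69.5, 37.7 and 98.1 CPM in young sham mice and at 29.1, 24.4 and 237 CPM in young injured mice. It was at 95.2, 2.65 and 16.7 CPM in aging sham mice and at 22.0 and 9.88 CPM in aging injured mice. Aging sham 2 had the lowest level of both peptides and young injured 3 the highest. The ratio of Nppa to Nppb counts was 1.23 in aging sham 2 and 47.6 in aging injured 2. Irx4 (plus strand of chromosome 13, 73260479 to 73269608) was at 11.4, 13.2 and 21.4 CPM in young sham mice and at 0.540, 6.14 and 13.4 CPM in young injured mice. It was at 7.79, 3.67 and 4.67 CPM in aging sham mice and at 9.45 and 9.62 CPM in aging injured mice. Young injured 1 was again the lowest, as for Myl2, Myl3 and Myh7.

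**Figure D2:**
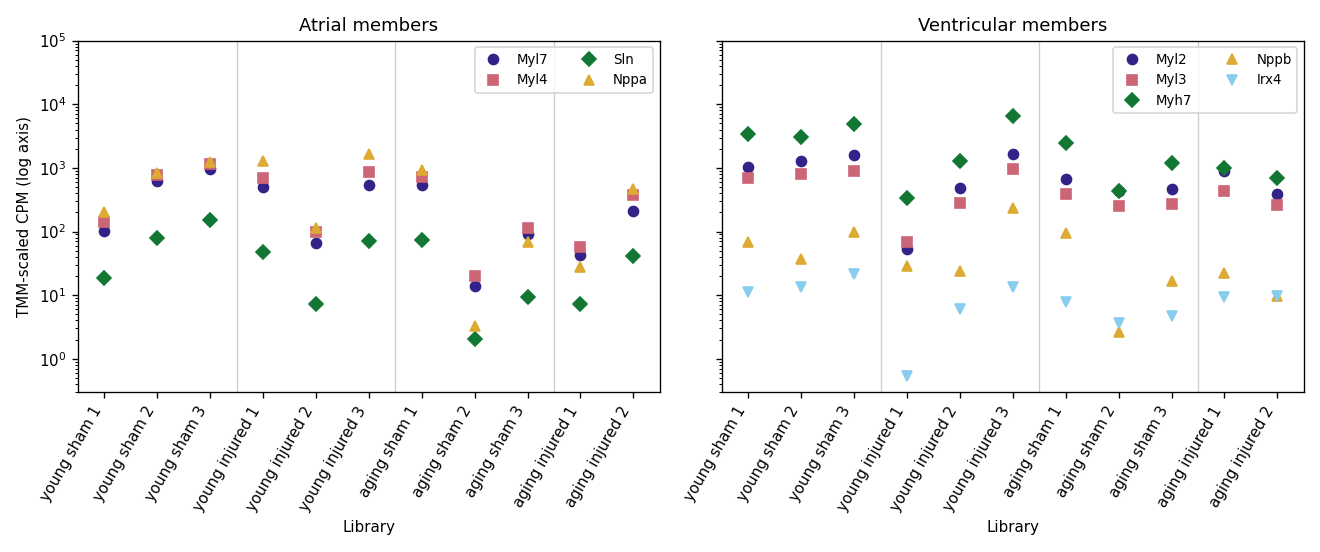
Each symbol is the level of 1 gene in 1 mouse (TMM-scaled CPM, log axis), with the atrial genes on the left and the ventricular genes on the right. Bmp10 had 0 counts in every library and is not drawn. The atrial genes fall together in aging sham 2 (Nppa at 3.27 CPM), and 4 of the 5 ventricular genes are lowest in young injured 1 (Irx4 at 0.540 CPM).

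Per length, in the RPKM values deposited by the authors, Nppa had the highest median over the 11 libraries, 588 RPKM. Myl7 followed at 386, Myl2 at 376, Myl3 at 209 and Myh7 at 167 RPKM. Myl4 was at 87.7, Sln at 85.9, Nppb at 42.9 and Irx4 at 3.99 RPKM. This order depends on the gene lengths behind the RPKM, given below for the light chains. The ranges of neighbours in this order overlapped throughout. Irx4 and Myl2, farther apart in it, did not: all 11 Irx4 values, up to 9.003 RPKM, lay below the lowest Myl2 value, 31.4 RPKM. Nppa itself ran from 4.25 to 2057 RPKM.

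The ratio of an atrial to a ventricular light chain, taken within a library, does not depend on how libraries are scaled. Myl7 over Myl2 in counts was 0.0988, 0.498 and 0.603 in young sham mice and 9.54, 0.136 and 0.329 in young injured mice. It was 0.808, 0.0320 and 0.196 in aging sham mice and 0.0477 and 0.541 in aging injured mice. Young injured 1 was thus the 1 library with more Myl7 than Myl2 counts, and the range over all libraries was 299-fold, or 25.3-fold without it. As a share of the counts of both genes, Myl7 was 3.10% in aging sham 2 (95% Wilson interval 2.83 to 3.39%) and 90.5% in young injured 1 (90.1 to 90.9%). These intervals cover counting error only.

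Counts are not corrected for length. The lengths implied by the deposited RPKM were 581 bases for Myl7, 1920 for Myl2, 4565 for Myl4 and 2012 for Myl3. Whether these are the lengths of the transcripts expressed in these valves was not tested, and the values per length depend on them. Per length, Myl7 exceeded Myl2 in 6 of 11 libraries, with a ratio of RPKM from 0.106 in aging sham 2 to 31.5 in young injured 1. Myl4 over Myl3 in counts was 0.207, 0.967 and 1.28 in young sham mice and 10.1, 0.345 and 0.930 in young injured mice. It was 1.90, 0.0809 and 0.427 in aging sham mice and 0.131 and 1.43 in aging injured mice, a 125-fold range, or 23.5-fold without young injured 1. Per length, Myl4 exceeded Myl3 in 1 library, young injured 1, at 4.46. Both ratios thus named the same extreme mice, while which chamber's gene was the more abundant in the other mice depended on the pair and on the scale.

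No group differed in these ratios beyond the spread between mice. The log2 ratio of Myl7 to Myl2 was -1.69 ± 1.43 (SD, n = 3) in young mice after sham surgery and -0.41 ± 3.24 (SD, n = 3) after injury. In aging mice it was -2.54 ± 2.34 (SD, n = 3) after sham surgery and -2.64 ± 2.48 (SD, n = 2) after injury. Injured minus sham, within age, was 0.59 on the log2 scale (exact permutation test, 2-sided, 200 arrangements, p = 0.71). Aging minus young, within surgery, was -1.54 (exact permutation test, p = 0.335). For Myl4 over Myl3 the differences were 0.66 (exact permutation p = 0.58) and -1.21 (exact permutation p = 0.375). Benjamini-Hochberg adjusted p was 0.71 for all 4, and the smallest p the design allows is 0.005. The sign of the surgery differences rested on single mice: without young injured 1 they were -0.32 and -0.03, and without aging injured 2 -0.28 and -0.20. For Myl7 over Myl2 it was also -0.01 without aging sham 2.

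**Figure D3:**
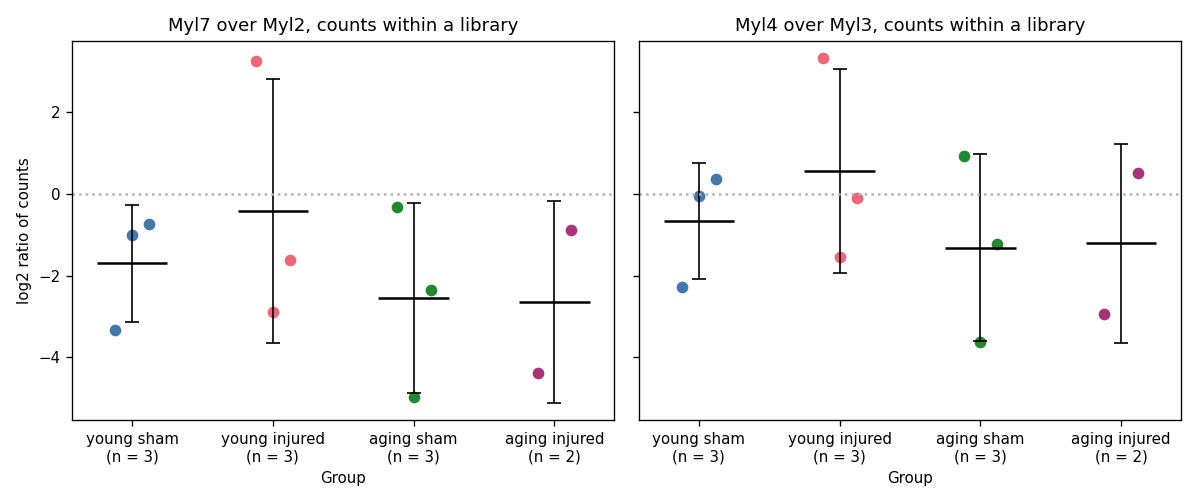
Points are the log2 ratio of counts in each mouse, for Myl7 over Myl2 (left) and Myl4 over Myl3 (right), with the group mean (bar) ± SD. All 4 groups overlap, with young injured 1 at 3.25 and aging sham 2 at -4.97 for Myl7 over Myl2.

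Summed over the 5 genes of each chamber, atrial over ventricular CPM was 0.0895, 0.447 and 0.458 in young sham mice and 5.23, 0.139 and 0.330 in young injured mice. It was 0.635, 0.0349 and 0.145 in aging sham mice and 0.0577 and 0.803 in aging injured mice. The atrial sum ran from 39.3 to 3467 CPM and the ventricular sum from 487 to 9422 CPM. Much of the ventricular sum was Myh7, whose level is uncertain: 337 of 487 CPM in young injured 1 and 6596 of 9422 CPM in young injured 3. In aging sham 2 Myh7 and Myl2 were both at 436 CPM. Leaving out Nppa and Nppb, the stress-responsive peptides, lowered the median ratio from 0.330 to 0.162 and kept young injured 1 highest and aging sham 2 lowest. Summed in RPKM instead, the log2 ratio was above 0 in young sham 2 and 3 (0.697 and 0.87) and young injured 1 and 3 (4.25 and 0.391). It was also above 0 in aging sham 1 (1.286) and aging injured 2 (1.317), and below 0 elsewhere, down to -3.486 in aging sham 2. Which chamber's sum was the larger thus depended on the scale in several mice.

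Set against the amount of cardiac muscle RNA, the genes still varied. As a percentage of the summed CPM of the 14 common cardiac muscle genes, Myl7 ran from 0.158% in aging sham 2 to 5.25% in young injured 1. Myl4 ran from 0.227% to 7.13%, and Nppa from 0.0371% to 13.5%, in the same 2 mice. In young injured 1 the ventricular genes other than Nppb were at their lowest share, with Myl2 at 0.550%, Myl3 at 0.705%, Myh7 at 3.49% and Irx4 at 0.0056%. In aging sham 2, where the atrial shares were lowest, Myl2 was at 4.95% but Myh7, at 4.94%, was also low. The highest value of Myl2 was 5.87%, in aging injured 1, and of Myh7 19.3%, in young injured 3. The SD over the 11 libraries fell from 1.95 to 1.51 on the log2 scale for Myl7 and from 1.39 to 0.98 for Myl2 with this division. Myh6, the heavy chain of both chambers in the adult mouse, ranged only 4.08-fold, from 2865 to 11676 CPM. Its level in young injured 1 was 3572 CPM, within the range of the other mice, where Myl2 was at its lowest. The ratio of Myh7 to Myh6 counts was 0.0943 in that mouse and 0.140 to 0.666 in the other 10.

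Across the 11 mice the atrial genes moved together, and so did most of the ventricular genes. With Myl7, the Pearson r of log2 CPM was 0.996 for Myl4 (Spearman rho 0.991), 0.985 for Sln (rho 0.982) and 0.965 for Nppa (rho 0.873). The permutation p of r was 1e-05 for Myl4 and Sln, the smallest that 100000 resamples can give, and 2e-05 for Nppa. Benjamini-Hochberg adjusted p over the 15 pairs was 5e-05, 5e-05 and 7.5e-05, and for rho 5e-05, 5e-05 and 0.0026. With Myl2, r was 0.983 for Myl3 (rho 0.991), 0.953 for Irx4 (rho 0.855) and 0.843 for Myh7 (rho 0.927). Permutation p of r was 1e-05, 0.00011 and 9e-05, with adjusted p of 5e-05, 0.00027 and 0.00027, and for rho 5e-05, 0.0033 and 0.00037. Without the 2 mice farthest from the median of the first gene, these 6 values of r were 0.991, 0.972, 0.936, 0.983, 0.835 and 0.843. Within groups, from deviations of each mouse from its group mean, they were 0.997, 0.992, 0.973, 0.991, 0.957 and 0.886. The genes of a library share its depth and its amount of cardiac muscle, and these values of r were not adjusted for either.

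Between the chambers, r depended on 1 mouse. Myl7 with Myl2 gave r = 0.12 (permutation p = 0.75, adjusted p = 0.83) and rho = 0.53 (permutation p = 0.1, adjusted p = 0.12). Without the 2 mice farthest from the median of Myl7, aging injured 1 and aging sham 2, r was 0.15, and within groups -0.005. Without young injured 1, a choice made after its ratio was seen, r was 0.63. In the same 10 mice Myl7 gave r = 0.68 with Myl3, 0.80 with Myh7 and 0.78 with Irx4. Over all 11 mice those values were 0.25, 0.53 and 0.18, with adjusted permutation p of 0.69, 0.18 and 0.78. Spearman rho over all 11 mice was higher, at 0.573, 0.609 and 0.655, with adjusted permutation p of 0.097, 0.077 and 0.055. Since the mouse was left out for its extreme ratio of these genes, the values from 10 mice describe its weight in r and are no test of a relation. Nppb, grouped as ventricular, gave r = 0.74 with Myl7 (permutation p = 0.0085, adjusted p = 0.018, rho 0.773) and 0.45 with Myl2 (permutation p = 0.17, adjusted p = 0.28, rho 0.764). By rank it followed both genes alike: the permutation p of rho was 0.0074 with Myl7 and 0.0087 with Myl2, with an adjusted p of 0.016 for each. Its r with Myl7 fell to 0.52 without the 2 mice farthest from the median and to 0.55 without aging sham 2 alone (permutation p = 0.1, adjusted p = 0.21). The r of Nppb with Myl2 was 0.715 without the 2 mice farthest from the median of Myl2, young injured 1 and 3, and 0.79 without young injured 1 alone. Its r with Myl7 and its r with Myl2 were not tested against each other.

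Among 13324 genes with a mean of at least 1 CPM, the 5 most like Myl7 by Pearson r over the 11 libraries were Myl4, Aldh1b1 (r = 0.986), Sln, Mybphl (0.977) and Fgf12 (0.974), and Nppa came 6th. Aldh1b1 encodes a mitochondrial aldehyde dehydrogenase, Mybphl a myosin-binding protein of atrial muscle and Fgf12 a regulator of sodium channels. Mybphl ran from 1.39 to 108 CPM, in the same order of mice as Myl7 (rho 1.0). The 5 most like Myl2 were Myl3, Ptgds (0.979), Rpl3l (0.962), Car4 (0.961) and Myot (0.960). Ptgds encodes a prostaglandin D synthase, Rpl3l a ribosomal protein of heart and skeletal muscle, Car4 a carbonic anhydrase and Myot a protein of the muscle Z-disc. Irx4 came 11th and Myh7 108th in likeness to Myl2, and Myl2 itself came 4999th in likeness to Myl7.

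Other genes known from each chamber were set against the log2 ratio of Myl7 to Myl2, as a description over 11 libraries that share depth and muscle content. Of 13 other atrial genes, 9 had a positive r, with a median of 0.48, and 6 were over 0.5. Among them were Myl1 (r = 0.712), Stard10 (0.651), Tbx5 (0.634), Kcnj3, a subunit of the acetylcholine-gated potassium channel (0.602), and Pam, which amidates peptides in atrial granules (0.531). The 4 with a negative r were Gja5, an atrial connexin (r = -0.429), the channel genes Kcna5 (-0.226) and Cacna1d (-0.124), and Nr2f2 (-0.079). Of 13 other ventricular genes 5 had a positive r, the median was -0.12, and 1, Lbh, was under -0.5 (r = -0.592). Pln, which encodes phospholamban, the ventricular inhibitor of the calcium pump, was lowest in young injured 1 at 236 CPM and reached 2086 CPM in young sham 3. Kcnip2, a subunit of the transient outward potassium channel, was at 2.05 CPM in young injured 1 and at 6.01 to 37.6 CPM elsewhere. Hey2 went the other way and was highest in young injured 1, at 86.9 CPM. Over all 19366 genes tested, 54.9% had a positive r, the median was 0.04, 4.17% were over 0.5 and 3.34% under -0.5.

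Further lists show what else moved with the ratio. All 14 common cardiac muscle genes had a positive r, with a median of 0.15 and none over 0.5. Of 9 conduction system genes 7 were positive, with a median of 0.17. Among them Hcn4, the main pacemaker channel of the sinus node, gave r = 0.234. Of 10 smooth muscle genes 1 was positive, with a median of -0.25. Of 9 valve endothelial genes 2 were positive, the median was -0.46, and 4 (Pecam1, Vwf, Tie1 and Tek) were under -0.5. All 4 were lowest in young injured 1, the mouse with the highest ratio, and r of the lists without that mouse is not given. The summed level of the 9 valve endothelial genes was also lowest in young injured 1, at 423 CPM, against up to 991 CPM in aging sham 3. The part of endothelial or smooth muscle content in the ratio was not tested. Skeletal muscle genes summed to 83.8 to 1198 CPM, mostly from Acta1 and Ckm, which heart muscle also expresses. The others were low. Myod1 was at 0 in all libraries, and Myh1, Myh2, Myh4 and Mylpf reached at most 0.841, 0.197, 0.406 and 0.890 CPM. Tnnt3 was detected in every library, at 0.322 to 6.60 CPM. Pvalb, Atp2a1, Tnnc2 and Tnni2 reached 6.16, 2.48, 1.39 and 1.29 CPM. Erythroid genes summed to 13.0 to 97.6 CPM.

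**Figure D4:**
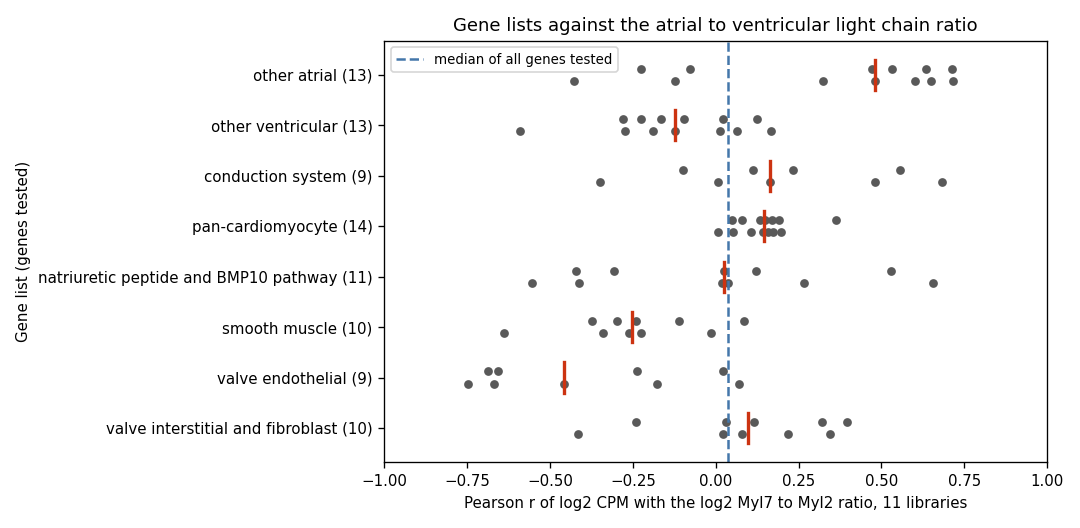
Each grey point is 1 gene, placed by its Pearson r over 11 libraries between log2 CPM and the log2 Myl7 to Myl2 ratio, and red bars are list medians. The other atrial genes have a median of 0.48 and valve endothelial genes -0.46, against 0.04 for all genes tested (dashed line).

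Injury in young valves changed none of the chamber genes beyond the spread between mice. With edgeR's quasi-likelihood test, Benjamini-Hochberg adjusted p under 0.1 and over 2-fold, 0 of the 9 genes with enough counts to be tested were called, and Bmp10 was not tested. Of all 19366 genes 81, or 0.418%, were called. Fitted log2 fold changes were negative for 7 and positive for 2 genes, Nppa at 0.42 (SE 1.49) and Nppb at 0.50 (SE 1.07). The median over the 9 genes was -0.61, against 0.01 for all genes and -0.69 for the common cardiac muscle genes. Irx4 had the most negative value, -1.20 (SE 0.74, adjusted p = 0.685 by edgeR), and Myl2 had -0.85 (SE 0.80). Cardiac muscle genes summed to 18929 to 34939 CPM in young sham and 8558 to 34148 CPM in young injured mice. No pair of groups was fully separate for any of the 9 genes in this contrast, where 14.6% of all genes were separate. Without young injured 3, the injured mouse with most ventricular RNA, Myl3 was called as lower, at -2.17 (adjusted p = 0.0696 by edgeR). With the cardiac muscle score as a covariate, the values turned for Myl7 (1.496), Myl4 (1.76), Sln (1.15) and Myh7 (0.054), and 0 of the 9 were called.

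In aging valves, injured against sham, 0 of the 9 genes and 0 of all genes, a share of 0%, were called by edgeR at an adjusted p under 0.1, while 1710 genes had an unadjusted p under 0.05, none of them one of the 9. DESeq2 called 329 genes in this contrast, and none of the 9. Both aging injured libraries had fewer genes with a count than any aging sham library, and this difference and injury cannot be told apart here. Fitted values were negative for 6 and positive for 3 genes. Nppb was at -1.26 (SE 1.26) and Irx4 at 0.82 (SE 0.81). The median over the 9 genes was -0.41, against -0.01 for all genes and 0.03 for the common cardiac muscle genes. Irx4 was the 1 gene with groups that did not overlap, at 9.45 and 9.62 CPM in injured mice against at most 7.79 CPM in sham mice, where 27.8% of all genes did not overlap. The signs of Myl7, Myl4, Sln and Nppa turned under several alternatives, so no direction is given for them. Those of Nppb (0.73) and Myh7 (0.046) turned without aging sham 1, and those of Myl2 (-0.43) and Myl3 (-0.19) without aging injured 1.

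Between ages, the sham valves gave the same sign for all 9 genes. The values ran from -1.54 for Sln to -0.84 for Nppb. Their median was -1.40, against 0.02 for all genes and -1.1 for the common cardiac muscle genes. Yet 0 of the 9 passed edgeR's test, where 5 of all genes, or 0.0258%, did. Myl3 had the smallest adjusted p, at -1.40 (SE 0.66, edgeR adjusted p = 0.559). Myl2, Myl3, Myh7 and Irx4 had aging sham mice all below the young sham mice, 4 of 9 genes, where 20.9% of all genes did not overlap. For Myl2 the young sham mean was 1302 ± 268 CPM (SD, n = 3) and the aging sham mean 520 ± 122 CPM (SD, n = 3). The 4 tested atrial genes overlapped between the ages. Summed common cardiac muscle genes were at 18929 to 34939 CPM in young and 8817 to 22281 CPM in aging sham mice. With the cardiac muscle score as a covariate, Myl4 (0.11), Nppa (0.18) and Nppb (0.23) turned sign and 0 of the 9 were called.

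In injured valves, aging against young, 8 of the 9 values were negative. Their median over the 9 was -1.35, against -0.04 for all genes and -0.28 for the common cardiac muscle genes. Of the 9 genes 0 were called, where 12 of all genes, or 0.062%, were. Nppb had the lowest value, -2.60 (SE 1.33, edgeR adjusted p = 0.455), with 22.0 and 9.88 CPM in aging injured mice below the lowest young injured mouse, at 24.4 CPM. It was the 1 gene of the 9 with separate groups, where 24.4% of all genes were separate. Both aging injured libraries had fewer genes with a count than any young injured library. In this contrast and in the interaction, that difference and age cannot be told apart. Irx4 was positive at 0.52 (SE 0.81), and at -0.03 without young injured 1. The values of Myl2 and Myl3, -0.18 and -0.30, turned to 1.26 and 1.000 without young injured 3, and that of Myh7, -1.70, to 0.076. The 2 injury contrasts share no mice, and their difference, the interaction of injury with age, called 0 of the 9 and 0 of all genes, a share of 0%, by edgeR. Unadjusted p was under 0.05 for 1523 genes there, none of them one of the 9. Among the 9, Irx4 had the largest interaction value, 2.02 (SE 1.09, edgeR adjusted p = 0.705). Contrasts that share a group of mice are not independent, and no overlap between them is given.

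**Figure D5:**
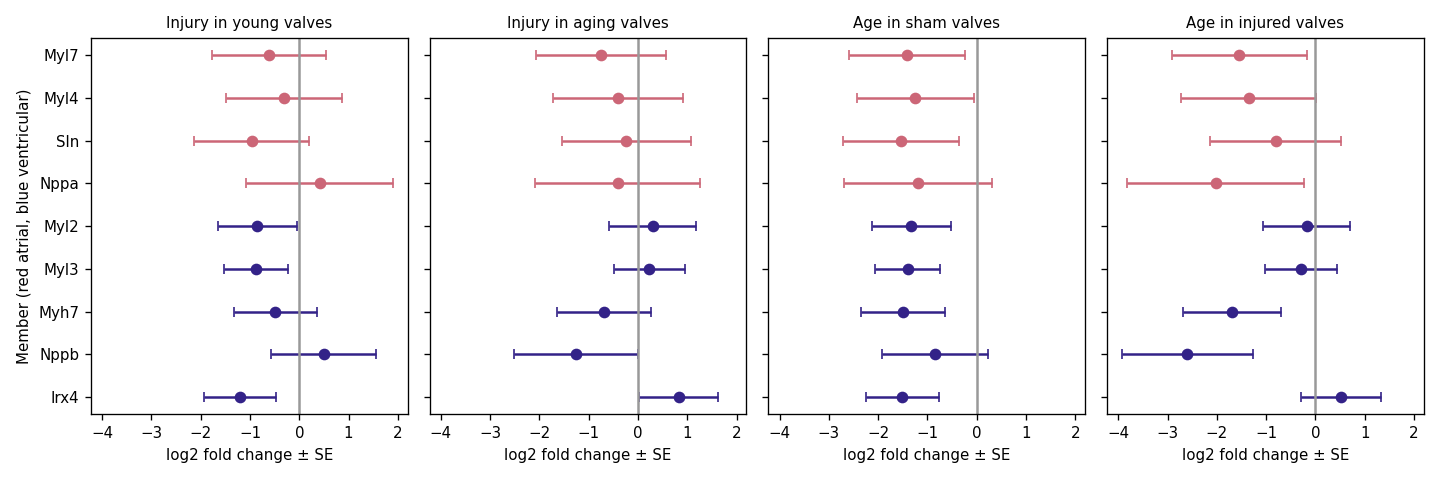
Points are fitted log2 fold changes ± SE for the 9 tested genes (atrial in red, ventricular in blue) in 4 contrasts, injured against sham and aging against young. In the age contrast in sham valves all 9 points are below 0, from -1.54 for Sln to -0.84 for Nppb, and in the other contrasts they fall on both sides.

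None of the lists of other atrial, other ventricular, conduction system or common cardiac muscle genes held a called gene in any of the 5 tests. A further list of 11 genes held the peptide gene Nppc and genes that process or receive the natriuretic peptides and BMP10. No processing or receptor gene was called, and 1 gene of the list rose with injury in young valves. That gene was Nppc, the C-type natriuretic peptide of endothelium (edgeR adjusted p = 0.0748), with 0 counts in all 3 young sham mice and 1.92, 6.34 and 2.45 CPM in the young injured mice. The call was lost in 10 alternatives, among them limma-voom (adjusted p = 0.113), and without any 1 of young sham 1, 2 or 3, young injured 2 or aging sham 1 or 2 (adjusted p from 0.111 to 0.258 by edgeR). Nppc was at 0.663, 0.432 and 2.37 CPM in aging sham and at 0.675 and 0.0292 CPM in aging injured mice. Corin, the protease that cleaves pro-ANP in heart muscle, ran from 62.3 to 196 CPM, with r = 0.655 against the log2 Myl7 to Myl2 ratio. Npr3, the clearance receptor, ran from 10.1 to 36.7 CPM, was lowest in young injured 1 and gave r = -0.555. The receptors Npr1 and Npr2 were at 117 to 222 and 138 to 219 CPM. The receptors of BMP10 were present although the ligand was not detected, with Acvrl1 at 59.7 to 82.8 CPM, Bmpr2 at 139 to 184 CPM and the co-receptor Eng at 253 to 536 CPM. Of 10 fibroblast and valve interstitial genes, 2 rose with injury in young valves, the matrix genes Col3a1 (1.48, SE 0.17, edgeR adjusted p = 0.00656) and Vcan (1.01, SE 0.19, edgeR adjusted p = 0.0644). Vcan lay at the 2-fold limit and was not called in 13 alternatives, and Col3a1 was not called when only the 2 groups were fitted (adjusted p = 0.118).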

How the data were processed

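Per the labels' protocols, mRNA libraries of 11 aortic valves were read as 150 nt pairs. The authors deposited raw counts for 46983 genes and RPKM values for a subset. Per the submitters' processing notes, TopHat2 2.1.0 and mm10 were used, while the program that counted reads, its strand setting and its annotation were not given in the sources used here. Among the library columns, 1 matched no label and was not used. Groups came from the sample titles, each library counting as 1 mouse.

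Counts were tested with edgeR 4.0.16 (R 4.3.3): filterByExpr with a minimum count of 10 left 19366 genes, TMM scaling, 4 group means in 1 fit of all 11 libraries, quasi-likelihood F test, called at Benjamini-Hochberg adjusted p under 0.1 and over 2-fold. The SE is the absolute log2 fold change over the root of F. Log2 CPM used a prior count of 2. Alternatives used DESeq2 1.42.0 and limma 3.58.1. Ratios were tested by exact permutation within strata (SciPy 1.17.1), and correlations with 100000 permutations. Bmp10, at 0, left 15 pairs instead of the 17 planned. The test was checked on simulated counts.

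The members and lists were chosen with earlier results of these data known. All members are named. Of the other lists, called genes, the genes at the highest levels and those at the ends of the correlations are given, the last chosen after their values were seen, and some list genes are not reported here. Libraries of 1 group were compared for duplicates by chi-square over genes, at 20.9 to 228 per degree of freedom.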

Additional observations from a re-analysis of the deposited data

How the results depend on the processing

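In every alternative and comparison run, 0 of the 9 tested genes were called, except that Myl3 was (1 gene) for injury in young valves without young injured 3. The counts of genes called over all genes depended on the tool and on single mice. DESeq2 called 268 genes for injury in young valves, 329 in aging valves, 200 for age in sham valves, 599 in injured valves and 174 for the interaction, against 81, 0, 5, 12 and 0. Fitting only the 2 groups compared gave 11 for injury in young valves, 13 for age in sham valves and 0 for age in injured valves. With no filter on low counts there was 1 call for injury in aging valves, 14 for age in sham valves and 38 for age in injured valves. With the cardiac muscle score as covariate there were 2 for age in sham valves and 84 for age in injured valves, and limma-voom called 2 for age in sham valves. Leaving out 1 library at a time gave 16 (without young injured 2) to 447 (without young injured 3) for injury in young valves and 0 to 261 (without aging injured 1) for injury in aging valves. It gave 1 to 10 for age in sham valves and 3 to 429 (without aging injured 1) for age in injured valves. Without either aging injured mouse that group is 1 mouse, which is assumed to vary like the other groups. The cause was not tested.

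The labels number the replicates. Same-numbered mice did not deviate together (r from -0.131 to 0.245 over 15 pairs, 1 over 0.1, and the best match had its own number in 9 of 30 comparisons), so the numbers were not treated as pairs. The replicate block gave 55 calls for injury in young valves and 4 for age in injured valves. It turned Nppa to -0.17 for injury in young valves, and Myl7 to 0.18, Myl4 to 0.43, Sln to 0.69 and Nppa to 0.98 for injury in aging valves, and Sln to 0.15, Myl2 to 0.54 and Myl3 to 0.31 for age in injured valves.

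Of the alternative values of the 9 genes, 51 turned sign, 650 kept sign and call, and 1 (Myl3, above) became called. For injury in young valves the cardiac muscle covariate gave Myl7 1.496, Myl4 1.76, Sln 1.15 and Myh7 0.054, and limma-voom gave Nppb -0.21. For injury in aging valves limma-voom gave Myl7 0.11, Myl4 0.31, Sln 0.61 and Nppa 0.94, and the covariate Myl4 0.17, Sln 0.39 and Nppa 0.61. For age in sham valves the covariate gave Myl4 0.11, Nppa 0.18 and Nppb 0.23. For age in injured valves it gave Myl2 0.33 and Myl3 0.15, and limma-voom Myl2 0.76 and Myl3 0.37. Without 1 library at a time, injury in young valves ran from -1.11 to 0.004 for Myl7, -0.81 to 0.26 for Myl4, -0.10 to 0.95 for Nppa, -2.26 to 0.039 for Myh7 and -1.35 to 0.95 for Nppb. Injury in aging valves ran from -2.33 to 1.27 for Myl7, -2.33 to 1.69 for Myl4, -1.98 to 2.11 for Sln and -3.57 to 2.80 for Nppa. It ran from -0.43 to 0.77 for Myl2, -0.19 to 0.55 for Myl3, -1.10 to 0.046 for Myh7 and -1.97 to 0.73 for Nppb. Age in injured valves ran from -0.89 to 1.26 for Myl2, -0.80 to 1.000 for Myl3, -2.22 to 0.076 for Myh7 and -0.031 to 1.52 for Irx4. The surgery difference ran from -0.32 to 1.47 for Myl7 over Myl2 and from -0.20 to 1.52 for Myl4 over Myl3. The r of Myl2 ran from -0.021 to 0.63 with Myl7, -0.019 to 0.60 with Myl4 and -0.06 to 0.58 with Nppa.

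With 2 or 3 mice a group, the SD of the log2 Myl7 to Myl2 ratio within groups was 1.43 to 3.24, which limits the precision of each group mean. Whether replicates differ by dissection or by biology was not tested.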
